A study of Drosophila melanogaster with 4 samples.

Results

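The Hox genes of Drosophila melanogaster lie in a pair of gene clusters on arm 3R, the Antennapedia complex (lab, pb, Dfd, Scr and Antp) and the bithorax complex (Ubx, abd-A and Abd-B). They were examined here for occupancy by RPD3, a histone deacetylase related to human HDAC1, in nuclei from adult heads. The Antennapedia region was taken as 3R from 2480000 to 2830000 (350 kb) and the bithorax region as 3R from 12480000 to 12810000 (330 kb), on release 5 of the genome, and every enriched RPD3 cluster that overlaps either region was kept. This gave 11 of the 5550 clusters of ChIP replicate 1, 7 of the 5872 clusters of ChIP replicate 2 and 11 of the 7386 clusters of the authors' combined list. The regions were set by position and not by RPD3 signal, though with earlier results of these data known.

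RPD3 was mapped by chromatin immunoprecipitation with sequencing (ChIP-seq), in which chromatin is fixed with formaldehyde, sheared, and pulled down with an antibody, here the one labelled RPD3-Q3451. The series holds 2 RPD3 ChIP samples and 2 inputs, all from mixed adults of the wild-type Oregon-R strain (Oregon-R-modENCODE), with no other genotype or treatment. Flies were raised in population cages on a 22-day adult cycle and heads were collected with sieves, so each sample is a pool of flies and of all cell types of the head. The labels do not say whether the replicates came from separate fly populations, so the spread between them may be technical, and with 1 group of 2 samples no test across samples was possible.

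Hox genes encode homeodomain transcription factors that give the segments of the body their identity, and their order on the chromosome follows the order of the body regions they act in. Outside those regions they are kept silent by Polycomb group proteins, and trithorax group proteins keep them active where they are needed. RPD3 removes acetyl groups from histones as part of several corepressor complexes, and it has been purified together with Polycomb group proteins from fly embryos. All of the Hox genes except Dfd are transcribed towards lower coordinates on 3R, which is background knowledge, since the gene table used here gives no strand. The lower end and the higher end of each gene record are therefore given separately.

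Both complexes were poor in RPD3 clusters. The Antennapedia region held 6 clusters in replicate 1 but 3 in replicate 2, while the bithorax region held 5 and 4. Clusters covered 4.52% of the Antennapedia region in replicate 1 and 2.37% in replicate 2, and 2.93% and 2.40% of the bithorax region. Over the rest of 3R, clusters covered 15.1% in replicate 1 and 15.2% in replicate 2. The density was 1.29 ± 0.606 clusters per 100 kb in the Antennapedia region and 1.36 ± 0.214 in the bithorax region, against 4.87 ± 0.327 over the rest of 3R (SD, n = 2 ChIP samples). In each replicate both complexes were below the rest of the arm, by a gap larger than the spread between replicates.

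The complexes did not differ from each other in cluster number or covered share beyond that spread. The cluster density of the Antennapedia region was 1.13 times that of the bithorax region by replicate 1 and 0.707 times by replicate 2, with opposite directions. This rests in part on the clusters over tRNA and 7SL RNA genes described below, which lie in the Antennapedia region alone. Without them (a setting chosen after seeing the data) it held 4 clusters in replicate 1 and 1 in replicate 2, or 0.714 ± 0.606 per 100 kb, against an unchanged 1.36 ± 0.214 in the bithorax region (SD, n = 2), and was the lower of the 2 complexes in both replicates. Its covered share was 1.54 times that of the bithorax region in replicate 1 and 0.984 times in replicate 2. The median cluster of the Antennapedia region was 2124 bp wide in replicate 1 and 2125 bp in replicate 2, and that of the bithorax region was 1983 and 2031 bp, against 2652.5 and 2563.5 bp over the rest of 3R. The Antennapedia median was thus the larger of the 2 complexes in both replicates, and both were below the rest of the arm, with clusters as listed. With clusters under 500 bp apart joined, the mean of the replicate medians was 3169.25 bp in the Antennapedia region and 2007 bp in the bithorax region. The former is above the unjoined medians of the rest of 3R, for which no joined value is given here.

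**Figure D1:**
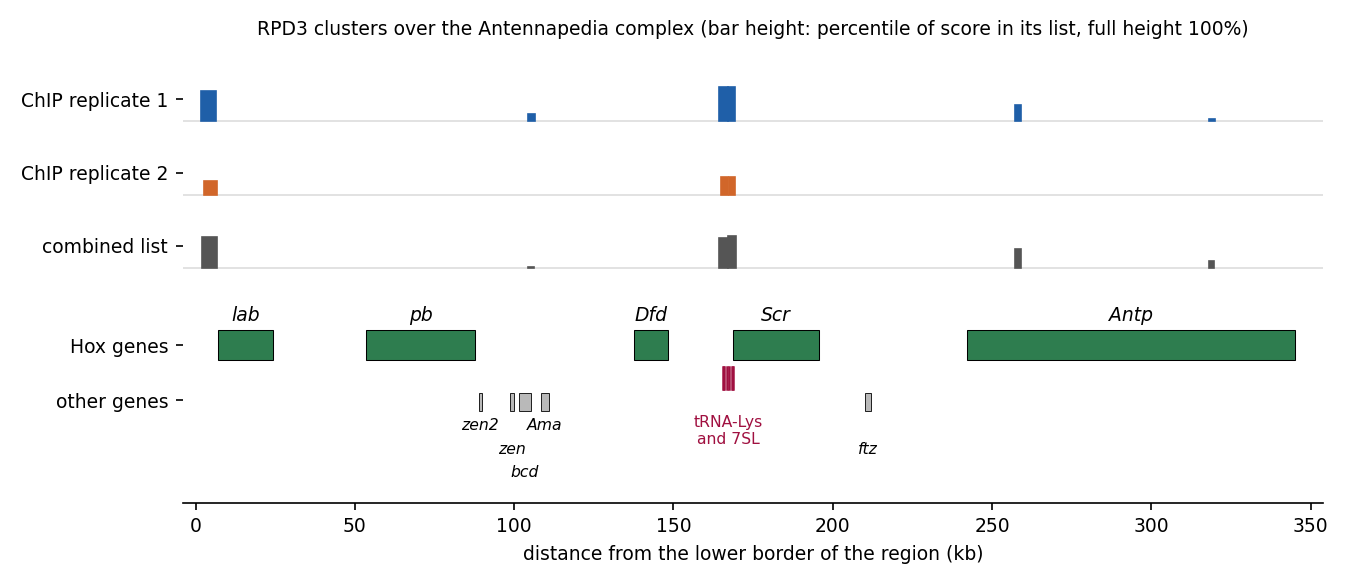
RPD3 clusters along the Antennapedia complex, in kb from the lower border of the region, for both ChIP replicates and the combined list. Bars are clusters and their height is the percentile of the authors' score within the list. Green boxes are the 5 Hox genes, grey boxes other segmentation and neighbouring genes, and red ticks the tRNA-Lys and 7SL RNA genes. The block of clusters beside Scr lies over the red ticks, and lab, pb and Dfd hold no cluster in any list.

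In the Antennapedia complex the first cluster lay just outside lab, the most anterior-acting Hox gene, and did not reach it. It spanned 2481673 to 2486544 in replicate 1 (4872 bp), and 2482506 to 2486587 in replicate 2 (4082 bp), and ended 605 and 562 bp short of the lower end of lab. It held the whole of twr, which encodes a signal peptidase subunit, and of agt, which encodes a DNA repair alkyltransferase. It was wider than 86.2% of the replicate 1 list and 84.3% of the replicate 2 list, and it was the widest cluster of either complex in each list. By score it exceeded 51.4% of the replicate 1 list and 23.5% of the replicate 2 list.

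The score is the authors' own value per cluster, taken here to be the log2 ratio of ChIP to input. No header names this scale or how ChIP was scaled to input, so a score was set only against others of its own list. The score of the cluster beside lab was 0.80 in replicate 1, 0.55 in replicate 2 and 0.63 in the combined list. The median score over the rest of 3R was 0.80 in replicate 1, 0.86 in replicate 2 and 0.60 in the combined list.

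Beyond that site a long stretch without clusters began. In replicate 1 it ran for 97861 bp, from 2486545 to 2584405, and it held 13 whole protein-coding genes. Among them were lab, pb, zen, which patterns the dorsal embryo, its relative zen2, and the Ccp84A and Edg84A cuticle protein genes. In replicate 2 it ran for 158317 bp, from 2486588 to 2644904, and also took in bcd, Ama and Dfd. The median gap between neighbouring clusters on 3R was 5966 bp in replicate 1 and 6473 bp in replicate 2. By length the stretch ranked 43 of 1274 gaps of the arm in replicate 1 and 8 of 1396 in replicate 2.

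The gene bcd encodes the maternal determinant of the anterior embryo and sits between pb and Dfd. It had a cluster at its higher end in replicate 1, from 2584406 to 2586390 (score 0.47, above 12.2% of the list), and none in replicate 2, where the nearest cluster was 59717 bp away. The combined list placed a cluster there from 2584444 to 2586340 with a score of 0.16, above 0.948% of its clusters. This was the lowest score among the 11 clusters of the complexes in the combined list.

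The clusters nearest to Dfd and Scr, the Hox genes of the posterior head and of the labial and first thoracic segments, lay in the space between them and coincided with genes for small non-coding RNAs. The first spanned 2644153 to 2647153 in replicate 1, and 2644905 to 2646981 in replicate 2. It held 2 lysine tRNA genes (tRNA:Lys-TTT-2-1 and tRNA:Lys-TTT-2-2) and the 7SL RNA gene CR42652, which encodes the RNA of the signal recognition particle. The second spanned 2647232 to 2649457 in replicate 1, against 2647331 to 2649455 in replicate 2. It held 2 more lysine tRNA genes (tRNA:Lys-TTT-2-3 and tRNA:Lys-TTT-2-4) and the 7SL RNA gene CR32864. All 4 tRNA genes and both 7SL genes of the region were thus inside clusters of both replicates.

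These clusters had the highest scores of the Antennapedia region in both replicates. The first scored 0.87 in replicate 1 and 0.61 in replicate 2, and the second 0.87 and 0.61, which was above 57.7% and 57.6% of the replicate 1 list and above 29.2% and 29.5% of the replicate 2 list. Across 3R, 24 of 79 tRNA genes, or 30.4%, were overlapped by a cluster in both replicates, and outside the complexes 20 of 75, or 26.7%. The 4 tRNA genes beside Scr thus fell in the minority of tRNA genes of the arm that had a cluster. The tRNA comparison was chosen after these values were seen. Genes of this kind have near-identical copies, and no source used here says how reads that match several copies were treated.

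Scr was the sole Hox gene with an end inside a cluster of both replicates. The second of these clusters reached 616 bp into the record of Scr in replicate 1 and 614 bp in replicate 2, at its lower end, or 2.29% of the gene in each. The higher end, where Scr transcription starts, was 26246 bp from the nearest cluster in replicate 1 and 26248 bp in replicate 2. ftz, a pair-rule segmentation gene between Scr and Antp, lay 40589 bp from the nearest cluster in replicate 1 and 40591 bp in replicate 2.

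Antp, whose misexpression turns antennae into legs, is the longest Hox gene of the table at 102976 bp. It held 2 clusters in replicate 1, from 2737078 to 2739099 (score 0.57) and from 2798126 to 2799847 (score 0.37), which together covered 3.64% of it. In replicate 2 it held none. The combined list called both positions, with scores of 0.41 and 0.31. The scores in replicate 1 were above 27% and 3.53% of that list. In replicate 2 the whole of Antp and of ftz lay in a stretch of 213038 bp without clusters, from 2649456 to 2862493, which passes the upper border of the region. It ranked second in length among the 1396 gaps of the arm.

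**Figure D2:**
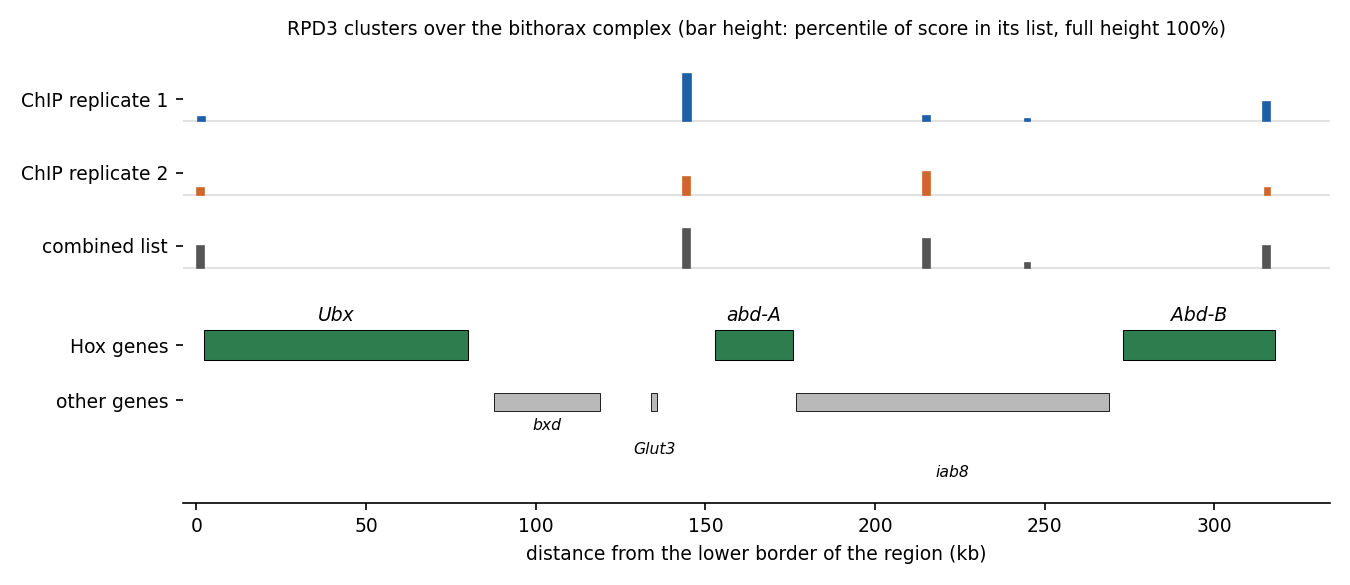
RPD3 clusters along the bithorax complex, in kb from the lower border of the region, drawn as for the Antennapedia complex. Green boxes are the 3 Hox genes and grey boxes the non-coding RNAs bxd and iab8 and the gene Glut3. The tallest bar of replicate 1 lies between Glut3 and abd-A, and between the cluster at the lower end of Ubx and that site no list has a cluster.

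In the bithorax complex 4 of the 5 sites were found in both replicates, and 3 of the 5 overlapped no Hox gene. The first, at the border with Ubx, spanned 12480520 to 12482426 in replicate 1 (score 0.42), and 12480289 to 12482288 in replicate 2 (score 0.44). Together with the next cluster below the region, it covered 55.6% of modSP in replicate 1 and 56.1% in replicate 2. The share of modSP under the first cluster alone was not computed. modSP encodes a serine protease of the Toll pathway. The first cluster reached 82 bp into the lower end of Ubx in replicate 1 and ended 57 bp short of it in replicate 2.

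Ubx, which specifies the third thoracic segment, and the neighbouring regulatory RNA bxd lay almost wholly in a stretch without clusters. The stretch ran for 140951 bp in replicate 1 and 141109 bp in replicate 2, from 12482427 to 12623377 and from 12482289 to 12623397. It ranked 19 of 1274 gaps of 3R in replicate 1 and 13 of 1396 in replicate 2. The higher end of Ubx, where its transcription starts, was 63230 bp from a cluster in replicate 1 and 63250 bp in replicate 2.

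The highest-scoring site of the complex in the combined list lay between Glut3, a sugar transporter gene, and abd-A, and overlapped no gene of the table. It spanned 12623378 to 12625624 in replicate 1, and 12623398 to 12625459 in replicate 2. Its score of 1.17 in replicate 1 was above 80.7% of that list and the highest of both complexes, while its score of 0.61 in replicate 2 was above 29.9%. In the combined list it was 0.82, above 65.7%. The lower end of abd-A was 7312 bp away in replicate 1 and 7477 bp away in replicate 2, and abd-A, which acts in the anterior abdomen, held no cluster in any list.

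Between abd-A and Abd-B, 1 site recurred and 1 did not. The recurring one spanned 12694133 to 12696115 in replicate 1 (score 0.44, above 8.97% of the list), and 12694130 to 12696306 in replicate 2 (score 0.71, above 38.2%). It lay within the long non-coding RNA gene iab8 and the overlapping gene MSAmiP, and it was the highest-scoring site of both complexes in replicate 2. The other, from 12724298 to 12725792 in replicate 1 (score 0.38, above 3.73% of the list), also lay within iab8 and had no counterpart in replicate 2. The combined list gave it a score of 0.29. Neither site held mir-iab-4 or mir-iab-8, a pair of microRNA genes read from opposite strands of 1 locus, which were 12069 bp from the nearest cluster in replicate 1 and 12066 bp in replicate 2.

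Abd-B, which acts in the posterior abdomen, was the Hox gene with the largest covered share in each replicate. Its cluster spanned 12794464 to 12796491 in replicate 1 (2028 bp, score 0.62), and 12794772 to 12796467 in replicate 2 (1696 bp, score 0.45). This was 4.50% of the gene in replicate 1 and 3.77% in replicate 2. The cluster lay inside the record, 1467 and 1491 bp from its higher end, which is the upstream end. Its score was above 33.4% of the replicate 1 list and 11.3% of the replicate 2 list.

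Just outside the borders the next clusters were close on 3 of 4 sides. Below the Antennapedia region the nearest was 5670 bp away in replicate 1 and 5973 bp in replicate 2, and above it 49444 and 32494 bp away. Below the bithorax region it was 909 and 1123 bp away, with a score of 1.00 in replicate 1 and 0.64 in replicate 2. Above it the nearest was 1385 and 1389 bp away, with scores of 0.41 and 0.43.

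**Figure D3:**
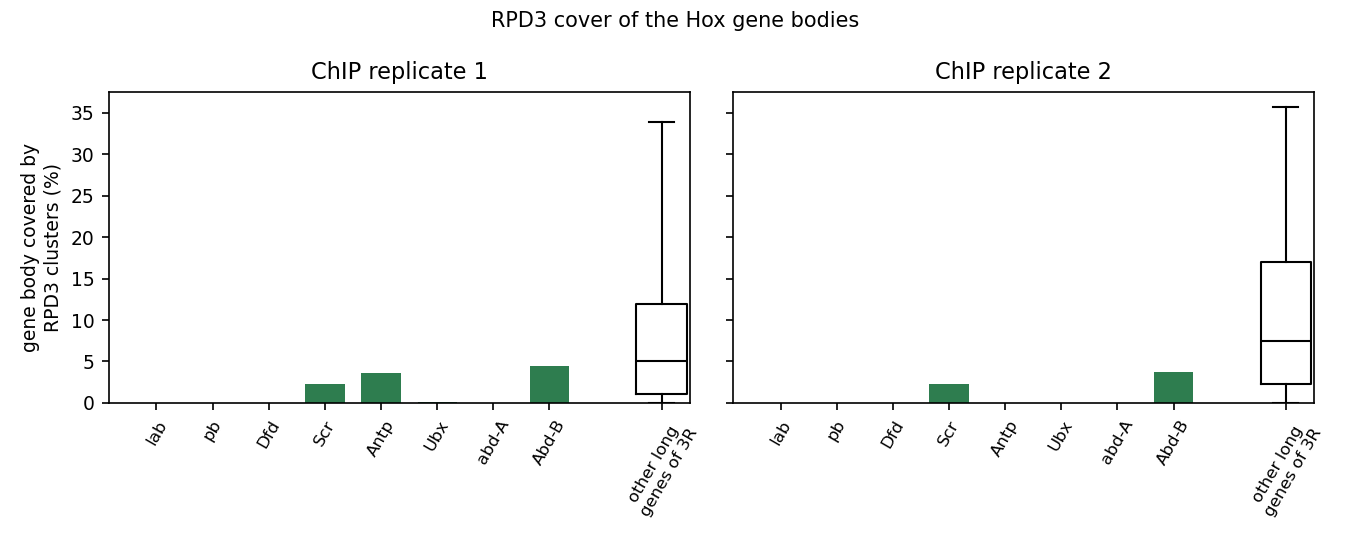
Share of each Hox gene record covered by RPD3 clusters, in percent, for ChIP replicate 1 (left) and replicate 2 (right), as bars. The box at the right of each panel gives the 413 other protein-coding genes of 3R at least as long as the shortest Hox gene (10593 bp), with the median, the 25th and 75th percentiles as box and the 5th and 95th as whiskers. The medians of the box are 5.02% and 7.53%, above every Hox bar of the same panel, while 46.5% and 33.2% of the other long genes lie below the highest Hox bar. Genes were not matched by length beyond the lower limit.

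Over all 8 Hox genes, 1 (12.5%) had an end inside a cluster of both replicates, namely Scr, against 55% of the 3385 protein-coding genes of 3R. Among the 421 protein-coding genes of 3R at least as long as the shortest Hox gene, 66.5% had an end inside a cluster of both replicates. A cluster overlapped the record in both replicates for 2 of the 8, Scr and Abd-B, against 56.2% of all protein-coding genes of the arm and 73.6% of the long ones. In replicate 1 alone 4 of the 8 were overlapped, by addition of Antp and Ubx, against 60.5% of genes. In replicate 2 alone 2 of the 8 were, against 59.7%. By the ends of the record the counts were 2 of 8 in replicate 1, against 59.4% of genes, and 1 of 8 in replicate 2, against 58.5%. The combined list overlapped 4 of the 8 records, against 65.1% of genes, and held an end of 2, against 63.6%. These shares are descriptions and were not tested.

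The covered share of the Hox genes was below the median of long genes throughout. Its median over the 8 was 0.0527% in replicate 1 and 0% in replicate 2, against 5.02% and 7.53% for the 413 other long genes. Of those 413, 192 (46.5%) in replicate 1 and 137 (33.2%) in replicate 2 were below the highest Hox share. The long genes were not matched by length to the Hox genes, which ran from 10593 to 102976 bp, and a cluster is a smaller share of a longer gene. No cluster covered any part of lab, pb, Dfd or abd-A in either replicate. Of the other long genes, 94 (22.8%) had no cover in replicate 1 and 73 (17.7%) in replicate 2. Among the Hox genes 4 of 8 had none in replicate 1 and 6 of 8 in replicate 2. The nearer end of a Hox gene was at a median of 4389.5 bp from a cluster in replicate 1 and 4484 bp in replicate 2, against 0 bp for the other long genes in both, that is, inside a cluster.

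The share of clusters that held a gene end was also lower in the complexes, a difference that was not tested. There, 4 of 11 clusters of replicate 1 (36.4%) and 3 of 7 of replicate 2 (42.9%) held an end of a protein-coding gene, against 78.6% of 1264 and 77.3% of 1390 over the rest of 3R. The 4 in replicate 1 were the cluster beside lab and those at the higher end of bcd, at the lower end of Scr and between modSP and Ubx. Among the other 24 protein-coding genes that lie wholly in the regions, 3 (12.5%) had an end inside a cluster of both replicates (CG1307, twr and agt), all in the cluster beside lab, against 55% of the protein-coding genes of 3R. This is the same share as that of the 8 Hox genes. None of the 26 long non-coding RNA genes did, nor any of the 4 microRNA genes (mir-993, mir-10, mir-iab-4 and mir-iab-8). The background for a cluster anywhere over the record, in both replicates, was 11.3% of 424 long non-coding RNA genes and 34.5% of 58 microRNA genes of the arm. By that rule 1 of the 26 long non-coding RNA genes, iab8, and none of the 4 microRNA genes was overlapped.

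**Figure D4:**
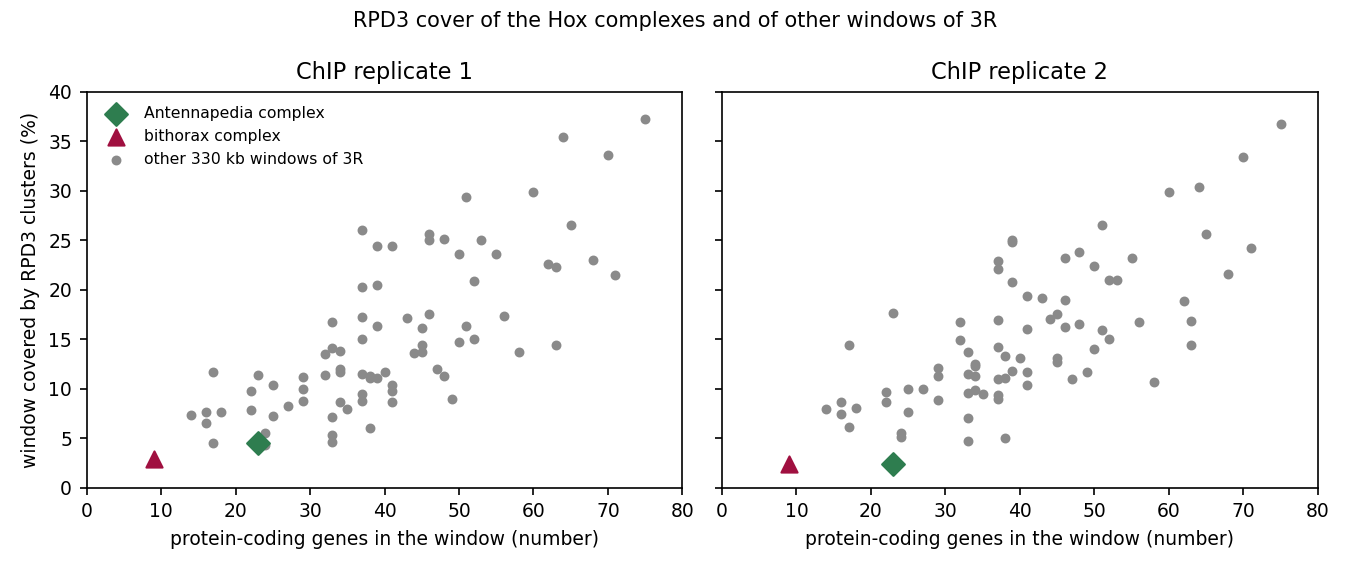
Covered share (percent) of the Antennapedia complex (diamond), the bithorax complex (triangle) and 80 other 330 kb windows of 3R (grey points) against the number of protein-coding genes in the window, for ChIP replicate 1 (left) and replicate 2 (right). Both complexes lie at the lower edge of the points, the bithorax complex with 9 genes and the Antennapedia complex with 23.

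The complexes were then placed among the 80 windows of 330 kb that tile 3R and overlap neither of them. The bithorax region had a smaller covered share than all 80 windows in both replicates, which spanned 4.32% to 37.2% in replicate 1 but 4.75% to 36.7% in replicate 2. The Antennapedia region was lower than 79 of the 80 windows in replicate 1 and than all 80 in replicate 2. By cluster number per 100 kb, no window was lower than the bithorax region in either replicate, and 1 window was lower than the Antennapedia region in replicate 1 and none in replicate 2. The window median was 4.24 clusters per 100 kb in replicate 1 and 4.85 in replicate 2.

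In the replicates, cluster widths and scores were also at the low side of the windows. The median score of the bithorax clusters lay above 8.97% of the list in replicate 1 and 20.6% in replicate 2, where 0 and 1 of the 80 windows had a lower median. In the combined list it lay above 37.8%, and 15 of the 80 windows (18.8%) were lower, so the low place by score was weaker there. That of the Antennapedia clusters lay above 39.2% and 29.2%, where 18 and 3 windows were lower. These medians rest on 3 to 6 clusters each. By median width, 3 windows were lower than the bithorax region in replicate 1 and none in replicate 2, and 7 and 3 windows were lower than the Antennapedia region.

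Gene number moved with these values. Over the 80 windows the covered share and the number of protein-coding genes had a Spearman's rho of 0.742 in replicate 1 and 0.701 in replicate 2, a description across windows that share 1 library and neighbour each other. The bithorax region held 9 protein-coding genes, fewer than any window, and the Antennapedia region held 23, where 8 windows had fewer and the window median was 39. The bithorax region therefore had 0.556 clusters per protein-coding gene in replicate 1 and 0.444 in replicate 2, against window medians of 0.362 and 0.413, so by this measure it was not low. The Antennapedia region had 0.261 and 0.130 clusters per gene, lower than 70 of the 80 windows in replicate 1 and than all of them in replicate 2. Among the 9 windows with no more genes than the Antennapedia region, covered shares spanned 4.56% to 11.7% in replicate 1 but 6.16% to 17.7% in replicate 2, and both complexes were below that range in each. The part that gene number has in the low cover was not tested beyond these values.

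Clusters of the complexes found in replicate 1 recurred in replicate 2 in 7 of 11 cases, or 63.6% (95% exact interval 30.8 to 89.1), against 86.2% (84.1 to 88.0) over the rest of 3R. All 7 clusters of replicate 2 recurred in replicate 1 (100%, 59.0 to 100), against 81.9% (79.8 to 83.9) over the rest of 3R. The intervals cover counting error over clusters only and treat neighbouring clusters of 1 library as independent. Whether recurrence differs between the complexes and the rest of 3R was not tested. The 4 sites of replicate 1 alone were those at bcd, the pair inside Antp and the upper one inside iab8, and 3 of the 4 were in the Antennapedia region.

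Other homeobox genes and the regulators of the Hox genes on the same arm were set beside them. Of 17 other homeobox genes listed by name, 15 were placed on 3R. Of these, 4 (hth, pros, btn and zfh1) had an end inside a cluster of both replicates, or 26.7%, also below the 55% of all protein-coding genes. The list does not hold every homeobox gene of 3R, so this share describes the listed genes only. NK7.1, for example, was not on it and had cover in both replicates. E5, the head gap gene ems, the NK homeobox genes bap, lbl, C15 and slou, and Ptx1 had no cover in either replicate. The cluster at pros, which encodes a neural fate regulator, scored 1.27 in replicate 1 and 0.95 in replicate 2. That at zfh1 scored 1.01 and 1.00, and that at btn 0.91 and 1.12. At hth, which encodes a cofactor of Hox proteins, the scores were 0.49 and 0.73. At tin, a heart determinant, a cluster of 6800 bp scored 1.37 in replicate 1 but covered only 1.24% of the gene, and none was called in replicate 2.

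Of 20 Polycomb and trithorax group genes listed by name, 8 were placed on 3R. Of these 8, 7 (87.5%) had an end inside a cluster of both replicates, all but the Polycomb group gene Sce. The share was 55% for all protein-coding genes of the arm and 66.5% for the long ones. With 8 genes and no test, nothing particular to these regulators is read from that count. The trithorax group genes osa and mor, which encode subunits of the Brahma chromatin remodelling complex, had clusters that scored 1.78 in replicate 1 and 1.87 in replicate 2 (osa) and 1.25 and 2.12 (mor). The clusters at corto scored 1.15 in replicate 1 and 2.00 in replicate 2, those at tara 1.63 and 1.54, and those at ash2 1.22 and 1.40. The Polycomb group gene Scm had a cluster of 1.18 in replicate 1 and 0.68 in replicate 2. At trx, which encodes a histone methyltransferase that keeps Hox genes active, the scores were 0.94 and 0.74.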

How the data were processed

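RPD3 ChIP-seq cluster lists of 2 ChIP samples were used, with the authors' combined list as their own summary and not as another replicate; no source used here says how it was made. Bowtie 0.12.7 is listed, per the submitters' processing notes. No source used here gives the cluster caller, its threshold or the read depth, so depth is unknown. The genome is release 5 of FlyBase, per the file headers. The deposited score was read as log2, because the powers of 2 of the 5 highest combined scores were 13, 12, 11, 10 and 9 times 1 step; for the replicate lists the same scale was assumed. The 1 region listed as depleted was left out, and inputs were not analysed here.

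Genes came from a RefSeq table of release 6. A 3R position minus 4174278 was taken as its release 5 position, an offset given with the choice of regions; 4204 of 4224 genes of 3R could be placed. As a check, the median distance from a cluster centre to the nearest gene end was 286 bp in replicate 1 and 264 bp in replicate 2, against 985 to 1187.5 bp with genes moved by 2 kb either way. The planned call on gene starts used both ends of each record, because the table gives no strand. Sequences were not used here.

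A cluster counted for a region, or for another list, where it overlapped it by 1 bp. Windows of 330 kb were tiled from the first base of 3R. The shares of clusters found in the other replicate carry exact (Clopper-Pearson) 95% intervals, and the other shares carry none. The named genes were the 8 Hox genes, every other gene of the regions with an end in a combined-list cluster found in both replicates (at most 20), ftz, zen, zen2, bcd, Ama and the microRNAs, and up to 6 genes of each list with the highest combined scores; genes outside it were chosen after their values were seen. Regions, members and lists were chosen with earlier results of these data known. Interval functions were tested on simulated data (1000 intervals, 0 mismatches). Alternatives were other lists, thresholds, overlaps, tilings and denominators. Python 3.11.15, pandas 2.3.3, numpy 2.4.6, scipy 1.17.1 and matplotlib 3.10.9 were used.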

Additional observations from a re-analysis of the deposited data

How the results depend on the processing

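Of 57 alternatives other than single replicates, 29 left a value within the spread between replicates or, for counts, within 1.5 times, and 28 moved it. In the better-scoring 50% of each list, cluster number per 100 kb was 0.429 in the Antennapedia and 0.152 in the bithorax region, and the covered share 1.44% and 0.340%. In replicate 2 no cluster of either complex was in that part, the highest being above 38.2% of its list. These means thus rest on clusters of replicate 1 alone. By number, 3.13% of windows were then lower than the Antennapedia region, and by cover 2.50%. Counted per protein-coding gene, 6.25% of windows were lower than the Antennapedia region and 74.4% lower than the bithorax region, against 0.625% and 0% per 100 kb, so the low place of the bithorax region depends on the denominator. Among gene-poor windows, chosen after seeing the data, 5.56% were lower than the Antennapedia region by number. With the tiling started in mid-window, 1.88% of windows were lower than the Antennapedia region by number and by cover, 10% by width, and 1.25% were lower than the bithorax region by number and by cover. With 350 kb windows 2% were lower than the bithorax region by number and 1.33% by cover. The combined list gave the bithorax region 3.05% cover, a median width of 2113 bp, a median score rank of 37.8% and 5% and 18.8% of windows lower by width and score. It gave the Antennapedia region 2128 bp and a score rank of 41.7%. Joining clusters under 500 bp apart gave an Antennapedia median of 3169.25 bp (mean of the replicates), so its low width depends on how neighbouring clusters are counted. Without the clusters over tRNA or 7SL RNA genes, a setting chosen after seeing the data, cluster number per 100 kb was 0.714 in the Antennapedia region and still 1.36 in the bithorax region. The number of Hox genes with an end in a cluster of both replicates, 1, was 3 within 1 kb, 2 in the combined list, 0 in the better-scoring 50% and 2 for any part of the gene; the cause of these moves was not tested.

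Each replicate alone gave 0.857 to 1.71 clusters per 100 kb, 2.37% to 4.52% cover, widths of 2124 to 2125 bp and score ranks of 29.2% to 39.2% for the Antennapedia region, and 1.21 to 1.52, 2.40% to 2.93%, 1983 to 2031 bp and 8.97% to 20.6% for the bithorax region. Windows lower than the Antennapedia region were 0% to 1.25% by number and cover, 3.75% to 8.75% by width and 3.75% to 22.5% by score. Those lower than the bithorax region were 0% to 0% by number and cover, 0% to 3.75% by width and 0% to 1.25% by score. The Hox count was 1 to 2. Transcript starts were not run, since the gene table gives none, and the better-scoring 50% left the median width of replicate 2 without clusters. No paired analysis was possible because there is a single ChIP group and no input values were used. Limits set by depth are unknown, as the lists carry no reads.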
